A study of Mus musculus with 16 samples.

Results

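Troponin is the calcium switch of striated muscle, and all 8 genes that encode its subunits in the mouse were followed here across ventricles of Trbp-cKO and control mice. The genes were chosen by their symbols, with earlier results of these data known: Tnnc1 and Tnnc2 for troponin C, Tnni1, Tnni2 and Tnni3 for troponin I, and Tnnt1, Tnnt2 and Tnnt3 for troponin T. They are 8 of the 55573 genes in the count table.

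A troponin complex sits on the thin filament beside tropomyosin and actin. Troponin C binds calcium, troponin I holds the filament off until calcium arrives, and troponin T ties the complex to tropomyosin. Each subunit exists in forms that are known from different muscles: Tnnc1 serves heart and slow skeletal muscle, Tnni3 and Tnnt2 are the cardiac forms, Tnni1 and Tnnt1 the slow skeletal forms, and Tnnc2, Tnni2 and Tnnt3 the fast skeletal forms. The heart before birth uses Tnni1, which Tnni3 replaces.

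All mice were male and carried floxed Trbp alleles together with αMHC-MerCreMer, a Cre recombinase that is driven in cardiomyocytes and becomes active when tamoxifen is given. The gene of Trbp, an RNA-binding protein that works with Dicer, is listed as Tarbp2. Tamoxifen at 30 mg/kg was injected on 5 days from 4 weeks of age in Trbp-cKO mice, and corn oil in control mice of the same genotype. Sham surgery or transverse aortic constriction (TAC), a ligature that loads the left ventricle with pressure, followed, and ventricles were taken 8 weeks later at 16 weeks of age. There were 4 hearts in each of the 4 groups, control sham, control TAC, Trbp-cKO sham and Trbp-cKO TAC. The deletion and the tamoxifen that induced it cannot be told apart in this design, because every Trbp-cKO mouse and no control mouse received the drug. Cre acts in cardiomyocytes only, and Tarbp2 RNA of other ventricular cells and of cardiomyocytes without recombination cannot be told apart in these samples.

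The positions of the genes are from GENCODE release M21 on GRCm38. Tnnc1 (ENSMUSG00000091898) lies on the plus strand at chr14:31208312-31211729, and Tnnc2 (ENSMUSG00000017300) on the minus strand at chr2:164777161-164779967. The other members form 3 pairs of a troponin I gene followed by a troponin T gene on the same strand. Tnni1 (ENSMUSG00000026418, chr1:135779434-135810989) and Tnnt2 (ENSMUSG00000026414, chr1:135836354-135852260) lie 25364 bases apart with Lad1 between them. Tnni3 (ENSMUSG00000035458, chr7:4518305-4524229) and Tnnt1 (ENSMUSG00000064179, chr7:4504570-4516382) are direct neighbours at 1922 bases. Tnni2 (ENSMUSG00000031097, chr7:142441808-142444410) and Tnnt3 (ENSMUSG00000061723, chr7:142498836-142516009) lie 54425 bases apart with Lsp1 between them.

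The promoters of 3 members are shown because Tnnc1 and Tnnt1 were both lower in Trbp-cKO hearts while Tnnt2, the dominant troponin T, did not pass the test. They are RefSeq promoter windows of 300 bases on GRCm38.p6, at chr14:31208062-31208361 (plus strand) for Tnnc1, chr7:4515926-4516225 (minus strand) for Tnnt1 and chr1:135836084-135836383 (plus strand) for Tnnt2. Capitals mark any match to the letters GATAA, to CATTCC, a motif of the MCAT element, or to ACAAT, a core of SOX sites. Matches to TATAAA, a form of the TATA box, are in capitals as well. Each motif was searched on both strands, so that a match on the other strand reads as its reverse complement.
Tnnc1: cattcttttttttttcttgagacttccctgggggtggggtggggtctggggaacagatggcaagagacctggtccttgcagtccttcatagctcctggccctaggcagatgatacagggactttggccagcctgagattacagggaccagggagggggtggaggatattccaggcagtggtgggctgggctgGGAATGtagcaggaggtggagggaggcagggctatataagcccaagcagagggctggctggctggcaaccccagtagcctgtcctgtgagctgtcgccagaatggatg
Tnnt1: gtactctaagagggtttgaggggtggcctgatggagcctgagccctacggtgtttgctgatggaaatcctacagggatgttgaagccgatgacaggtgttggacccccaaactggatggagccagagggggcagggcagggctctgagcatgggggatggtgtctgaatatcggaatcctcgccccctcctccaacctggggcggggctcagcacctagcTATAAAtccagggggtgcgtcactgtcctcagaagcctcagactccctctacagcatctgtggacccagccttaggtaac
Tnnt2: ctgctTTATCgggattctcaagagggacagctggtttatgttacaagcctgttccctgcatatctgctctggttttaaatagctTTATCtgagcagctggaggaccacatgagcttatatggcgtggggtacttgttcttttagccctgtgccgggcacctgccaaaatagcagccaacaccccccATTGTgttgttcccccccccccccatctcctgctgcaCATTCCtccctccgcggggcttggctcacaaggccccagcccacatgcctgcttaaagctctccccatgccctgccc

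The table of promoters held 6 of the 8 members, and Tnni2 and Tnnt3 were not among them. CATTCC, which TEAD factors bind, occurred 1 time each in the Tnnc1 and Tnnt2 windows and in 14.7% of all 32851 promoter windows. GATAA, a core bound by GATA factors, occurred 2 times in Tnnt2 and 2 times in Tnni3, and in 25.4% of all windows. ACAAT occurred 1 time in Tnnt2 and in none of the other members' windows, against 31.0% of all windows. TATAAA occurred in Tnnt1 alone among the members and in 13.6% of all windows. Other forms of the TATA box were not searched, and the Tnnc1 window holds the letters tatataag, left in lower case. The MEF2 consensus, found in 3.19% of all windows, and the CArG box, found in 1.63%, had no match in the members' windows.

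The targeted gene was checked first. Tarbp2 was measured at 30.6, 32.7, 33.3 and 32.4 CPM (the count divided by the size of its library and scaled to a common total) in the control sham hearts and at 25.2, 21.1, 30.6 and 31.1 in the control TAC hearts. It stood at 9.09, 8.39, 11.4 and 9.21 CPM in the Trbp-cKO sham hearts and at 7.14, 8.57, 9.05 and 9.74 in the Trbp-cKO TAC hearts, so the 8 Trbp-cKO hearts lay below the 8 controls. The total count per heart ranged from 45166994 to 68274222. Control TAC hearts 1 and 2 and Trbp-cKO TAC heart 4 stood apart, with summed CPM of 10 cardiomyocyte marker genes of 26500, 21100 and 29400, against 47400 to 65800 in the other 13 hearts. Mitochondrial transcripts made up 38.2% and 38.8% of the counts in control TAC hearts 1 and 2 and 18.2% to 26.3% in the rest. In tissue RNA of this kind, fewer cardiomyocytes and less RNA per cardiomyocyte cannot be told apart.

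Per kilobase of exon, the heart forms exceeded the others by orders of magnitude in every group. In control sham hearts the levels were 1760 ± 33 CPM per kb for Tnnc1, 1440 ± 52 for Tnni3 and 790 ± 15.9 for Tnnt2 (SD, n = 4). Tnnt1 followed at 8.32 ± 1.48 CPM per kb, then Tnni2 at 0.577 ± 0.0593, Tnnt3 at 0.494 ± 0.225, Tnnc2 at 0.237 ± 0.129 and Tnni1 at 0.086 ± 0.017. The ranges of Tnni2 and Tnnt3 overlapped, as did those of Tnnt3 and Tnnc2 and of Tnnc2 and Tnni1, so the order of these neighbours is not beyond their spread. The order of the 3 heart forms depended on the length used: per kilobase of the annotated principal transcript, control sham hearts had 5100 ± 101 for Tnnt2, 3260 ± 117 for Tnni3 and 2540 ± 46.5 for Tnnc1. In Trbp-cKO sham hearts Tnnc1 was the lowest of the 3 heart forms on both lengths, at 525 ± 43.3 CPM per kb of exon against 908 ± 39.1 for Tnnt2 and 1280 ± 121 for Tnni3.

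**Figure D1:**
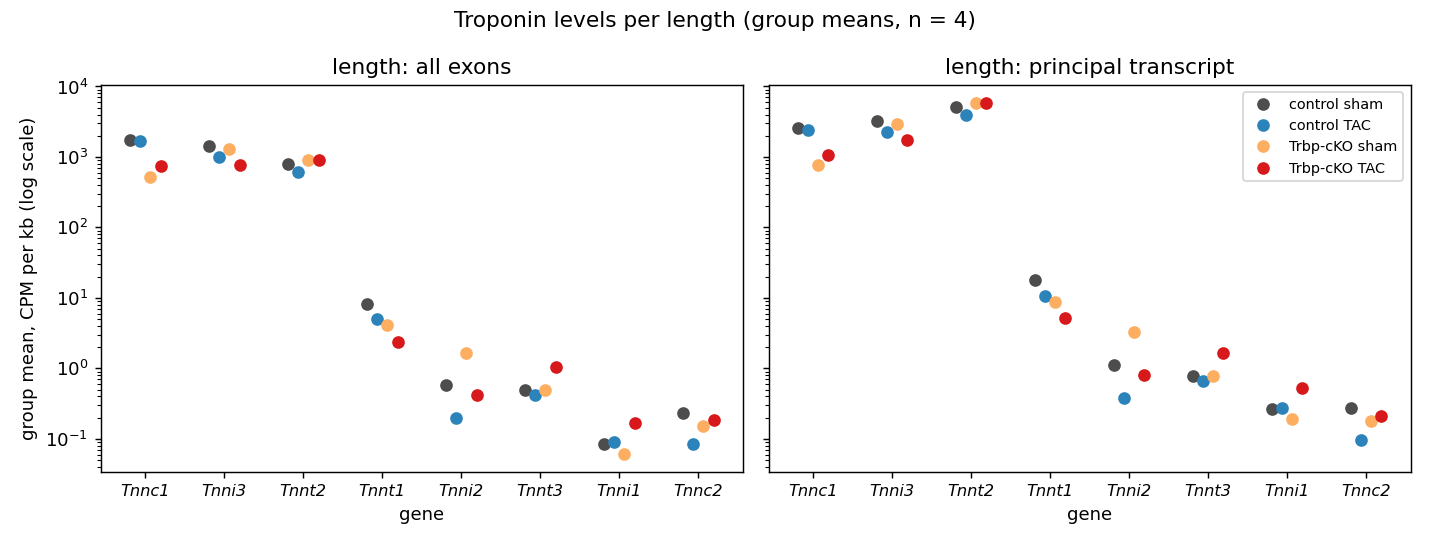
Group mean levels (n = 4 hearts each) of the 8 troponin genes in CPM per kilobase on a log axis, with all exons as the length on the left and the annotated principal transcript on the right. Tnnc1, Tnni3 and Tnnt2 lie far above the other 5 genes in each group on both lengths, while the order among these 3 depends on the length.

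Tnnc1, the only troponin C present in quantity in these hearts, fell with the deletion under both surgeries. The control sham hearts had 1860, 1860, 1790 and 1820 CPM and the Trbp-cKO sham hearts 497, 521, 596 and 570. The control TAC hearts had 1570, 1310, 2000 and 2020 CPM and the Trbp-cKO TAC hearts 746, 892, 792 and 652. All 8 Trbp-cKO hearts lay below all 8 control hearts, and the lowest controls were the same control TAC hearts 1 and 2 that had low cardiomyocyte markers. The log2 fold change was -1.74 (SE 0.16, edgeR adjusted p = 8.75e-05) between the sham groups and -1.16 (SE 0.16, edgeR adjusted p = 0.000566) between the TAC groups. Without control TAC hearts 1 and 2, the TAC difference was -1.40 (edgeR adjusted p = 9.29e-05). In a fit of the TAC groups alone it was -1.18 with an edgeR adjusted p of 0.0566. TAC itself left Tnnc1 at a difference of -0.08 in control hearts (95% confidence interval -0.41 to 0.24). In Trbp-cKO hearts the TAC group lay above the sham group in every heart, at 0.50 (95% confidence interval 0.17 to 0.82, edgeR adjusted p = 0.0536), just outside the threshold, and at 0.49 with an adjusted p of 0.00828 when control TAC hearts 1 and 2 were left out of the shared fit.

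Tnnc2, the fast skeletal troponin C, was close to absent. Control sham hearts had 3, 17, 11 and 15 counts, and control TAC hearts 10, 0, 2 and 3. Trbp-cKO sham hearts had 8, 13, 1 and 7 counts and Trbp-cKO TAC hearts 10, 12, 10 and 4. In CPM the groups overlapped in each of the 4 comparisons, and the 0 allows up to 3 counts. It shares 592 exon bases with Ube2c on the opposite strand, and whether the counting used strand is not given in the sources used here, so even these counts may not belong to Tnnc2. None of its comparisons passed the test, and their intervals were wide, from -3.14 to 0.19 on the log2 scale for TAC in control hearts.

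Tnni3, cardiac troponin I, was lower after TAC in Trbp-cKO hearts. It measured 2950, 2460, 2720 and 2410 CPM in Trbp-cKO sham hearts and 1640, 1950, 1610 and 1220 in Trbp-cKO TAC hearts, with no overlap. The log2 fold change was -0.72 (SE 0.18, edgeR adjusted p = 0.0198), and -0.61 (adjusted p = 0.000812) without the 3 hearts of low cardiomyocyte markers. In controls it measured 3130, 2940, 2880 and 2940 CPM after sham surgery and 1840, 1480, 2470 and 2370 after TAC. These groups did not overlap either, but the difference of -0.54 (95% confidence interval -0.93 to -0.16) had an edgeR adjusted p of 0.0798, and it was -0.30 (adjusted p = 0.612) without control TAC hearts 1 and 2, which held the lowest values. The deletion gave Tnni3 a difference of -0.17 in sham hearts (95% confidence interval -0.56 to 0.21) and -0.35 in TAC hearts (-0.73 to 0.04), neither of which passed. The TAC value was -0.61 (adjusted p = 0.0527) without control TAC hearts 1 and 2 and passed at -0.49 (adjusted p = 0.0235) without the 3 hearts of low cardiomyocyte markers. Tnni3 shares 86 exon bases with Dnaaf3 on the same strand, and 0.536% of its stretches of 75 bases also occur in that gene.

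Tnni2, the fast skeletal troponin I, changed in all 4 comparisons of groups, but at low counts of 9 to 176 per heart. It measured 0.83, 0.959, 0.908 and 0.758 CPM in control sham hearts and 2.68, 2.44, 2.03 and 2.86 in Trbp-cKO sham hearts. After TAC it measured 0.218, 0.171, 0.397 and 0.386 CPM in controls and 0.638, 0.763, 0.748 and 0.349 in Trbp-cKO hearts. TAC went with lower values and the deletion with higher ones, and of the 4 comparisons only that of control TAC with Trbp-cKO TAC had overlapping groups, where Trbp-cKO heart 4 fell among the controls. Tnni2 rose with the deletion by 1.53 (SE 0.26, edgeR adjusted p = 0.00899) in sham hearts and by 1.08 (SE 0.29, edgeR adjusted p = 0.0392, exact permutation p = 0.0857) in TAC hearts. It fell with TAC, with a log2 fold change of -1.54 (SE 0.28, edgeR adjusted p = 0.00741) in control hearts and of -2 (SE 0.26, edgeR adjusted p = 0.000206) in Trbp-cKO hearts. Without control TAC hearts 1 and 2, the change with TAC in controls was -1.14 (adjusted p = 0.107) and that with the deletion after TAC was 0.66 (adjusted p = 0.256). Without all 3 hearts of low cardiomyocyte markers they were -1.14 (adjusted p = 0.0161) and 0.86 (adjusted p = 0.0407). The call with the deletion after TAC stood in 4 of the 16 fits that left out a single heart. The exact permutation test reached its smallest possible value for 4 against 4 hearts, 0.0286, in the other 3 comparisons.

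Tnni1, the slow skeletal and fetal troponin I, rose with TAC in Trbp-cKO hearts. It was near the limit of detection, with counts of 4 to 50 per heart. The Trbp-cKO sham hearts had 0.0909, 0.242, 0.337 and 0.211 CPM and the Trbp-cKO TAC hearts 0.498, 0.545, 0.601 and 0.794, so that all TAC hearts were higher. The log2 fold change was 1.43 (SE 0.42, edgeR adjusted p = 0.0436), and the adjusted p was 0.0698 without the 3 hearts of low cardiomyocyte markers. The call stood in 4 of the 16 fits that left out a single heart. Control sham hearts had 0.367, 0.267, 0.357 and 0.247 CPM and control TAC hearts 0.382, 0.398, 0.431 and 0.0702, with a difference of 0.05 (95% confidence interval -0.86 to 0.95). The TAC groups did not overlap, with Trbp-cKO higher, but that difference of 0.93 (95% confidence interval 0.05 to 1.81) had an edgeR adjusted p of 0.205.

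Tnnt2, cardiac troponin T and the most abundant troponin transcript by count, passed the edgeR test in no comparison. It measured 6260, 6190, 6030 and 6010 CPM in control sham hearts and 7260, 7130, 7170 and 6590 in Trbp-cKO sham hearts, which lay higher without overlap by 0.20 on the log2 scale (95% confidence interval -0.20 to 0.61). After TAC it measured 4130, 3290, 5680 and 5850 CPM in controls and 5580, 7520, 6570 and 8730 in Trbp-cKO hearts. The lowest of these were again control TAC hearts 1 and 2, and the highest was Trbp-cKO TAC heart 4, although its cardiomyocyte markers were low. The difference between the TAC groups was 0.58 (95% confidence interval 0.18 to 0.99, edgeR adjusted p = 0.0877), and it was 0.29 (adjusted p = 0.382) without control TAC hearts 1 and 2. DESeq2 called it at 0.60 (adjusted p = 0.0125), as did edgeR with library size only and 1 of the 16 fits with a heart left out. With TAC the difference was -0.37 (95% confidence interval -0.77 to 0.04) in control hearts, or -0.09 (adjusted p = 0.948) without hearts 1 and 2 of the TAC group, and 0.01 (-0.39 to 0.42) in Trbp-cKO hearts.

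Tnnt1, the slow skeletal troponin T whose gene lies next to Tnni3, was lower in Trbp-cKO hearts after both surgeries. It measured 16, 23.2, 17.5 and 16.7 CPM in control sham hearts and 8.41, 8.11, 9.49 and 9.96 in Trbp-cKO sham hearts. After TAC it measured 9.11, 7.02, 15.7 and 12.0 CPM in controls and 4.59, 6.67, 6.12 and 3.81 in Trbp-cKO hearts. Neither pair of groups overlapped. The log2 fold change with the deletion was -1.03 (SE 0.22, edgeR adjusted p = 0.032) in sham and -1.05 (SE 0.23, edgeR adjusted p = 0.0152) in TAC hearts, and the latter was -1.40 (adjusted p = 0.00222) without control TAC hearts 1 and 2 and -1.06 (adjusted p = 0.152) in a fit of the TAC groups alone. The sham call was lost in 8 of the 16 fits that left out a single heart, each of them a sham heart, where the adjusted p reached 0.102. Tnnt1 also fell with TAC in Trbp-cKO hearts, with a log2 fold change of -0.76 (SE 0.23, edgeR adjusted p = 0.0435), and this call stood in 5 of the 16 fits with a heart left out. In control hearts the difference with TAC was -0.74 (95% confidence interval -1.21 to -0.27, edgeR adjusted p = 0.057), and -0.41 (adjusted p = 0.568) without control TAC hearts 1 and 2.

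Tnnt3, the fast skeletal troponin T, was highest in Trbp-cKO TAC hearts. Those hearts had 1.18, 1.32, 1.72 and 2.38 CPM, against 0.837, 0.74, 0.48 and 0.597 in control TAC hearts. After sham surgery the values were 0.886, 0.913, 0.556 and 0.747 in Trbp-cKO and 1.15, 0.299, 0.778 and 0.899 in control hearts. Every Trbp-cKO TAC heart exceeded every heart of the other groups. Tnnt3 rose by 1.32 with the deletion after TAC (SE 0.34, edgeR adjusted p = 0.0357), on counts of 29 to 150. Without control TAC hearts 1 and 2 this was 1.60 with an adjusted p of 0.0609, and the call stood in 8 of the 16 fits with a heart left out. The difference with TAC in Trbp-cKO hearts was 1.09 (95% confidence interval 0.38 to 1.81, edgeR adjusted p = 0.0512), and the deletion in sham hearts gave -0.01 (-0.74 to 0.71).

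**Figure D2:**
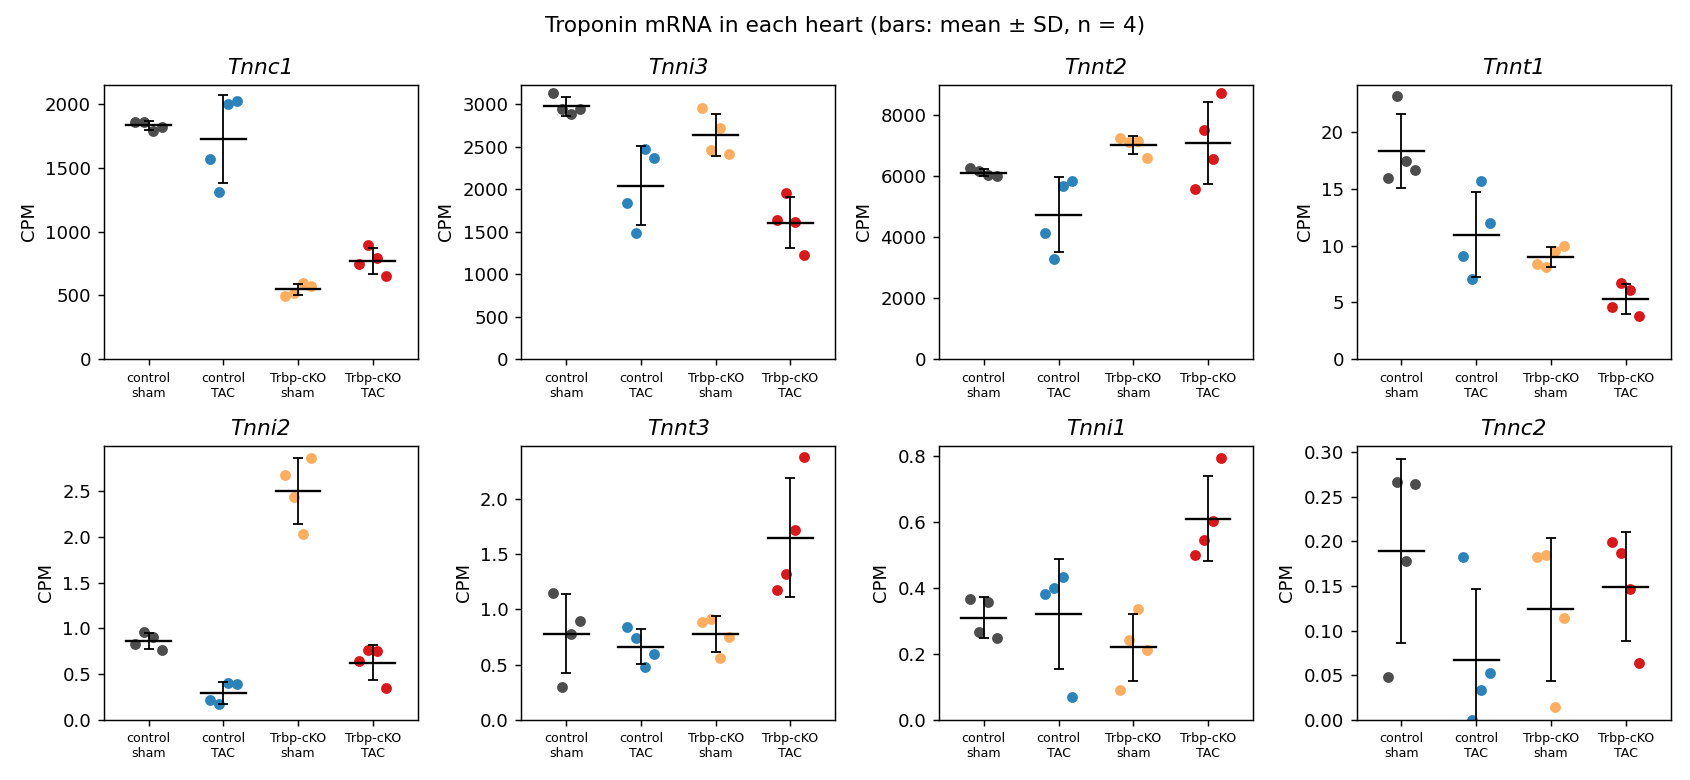
CPM of each troponin gene in each of the 16 hearts, with the group mean and SD (n = 4; the SD bar of Tnnc2 in control TAC is cut at 0) and a separate vertical axis for each gene. The 8 Trbp-cKO hearts, at 497 to 892 CPM of Tnnc1, lie below the 8 control hearts, at 1310 to 2020, and the Trbp-cKO sham hearts, at 2.03 to 2.86 CPM of Tnni2, lie above all others.

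Counted over the family, 1 of the 8 genes passed an adjusted p of 0.05 with TAC in control hearts (Tnni2, lower), while 6.29% of all 19955 genes tested did so. With the deletion in sham hearts 3 passed (Tnnc1 and Tnnt1 lower, Tnni2 higher), against 1.68% of all genes. With the deletion after TAC 4 passed (Tnnc1 and Tnnt1 lower, Tnni2 and Tnnt3 higher), against 5.53%. With TAC in Trbp-cKO hearts 4 passed (Tnni2, Tnni3 and Tnnt1 lower, Tnni1 higher), against 9.94%. Median log2 fold changes of the 8 genes were -0.46, -0.31, 0.76 and 0.15 in this order, where those of all genes tested were 0.02, 0.01, -0.01 and 0. These comparisons share groups, so their counts are not independent of each other. Whether the deletion acted differently after TAC than after sham surgery was tested by the interaction, which 0 of the 8 genes passed in edgeR, against 1.05% of all genes. DESeq2 also gave 0. An unadjusted p under 0.05 in edgeR was found for 3 members, where 15.4% of all genes had one: Tnnc1 at 0.58 (95% confidence interval 0.12 to 1.04), Tnni1 at 1.38 (0.11 to 2.66) and Tnnt3 at 1.33 (0.31 to 2.35).

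**Figure D3:**
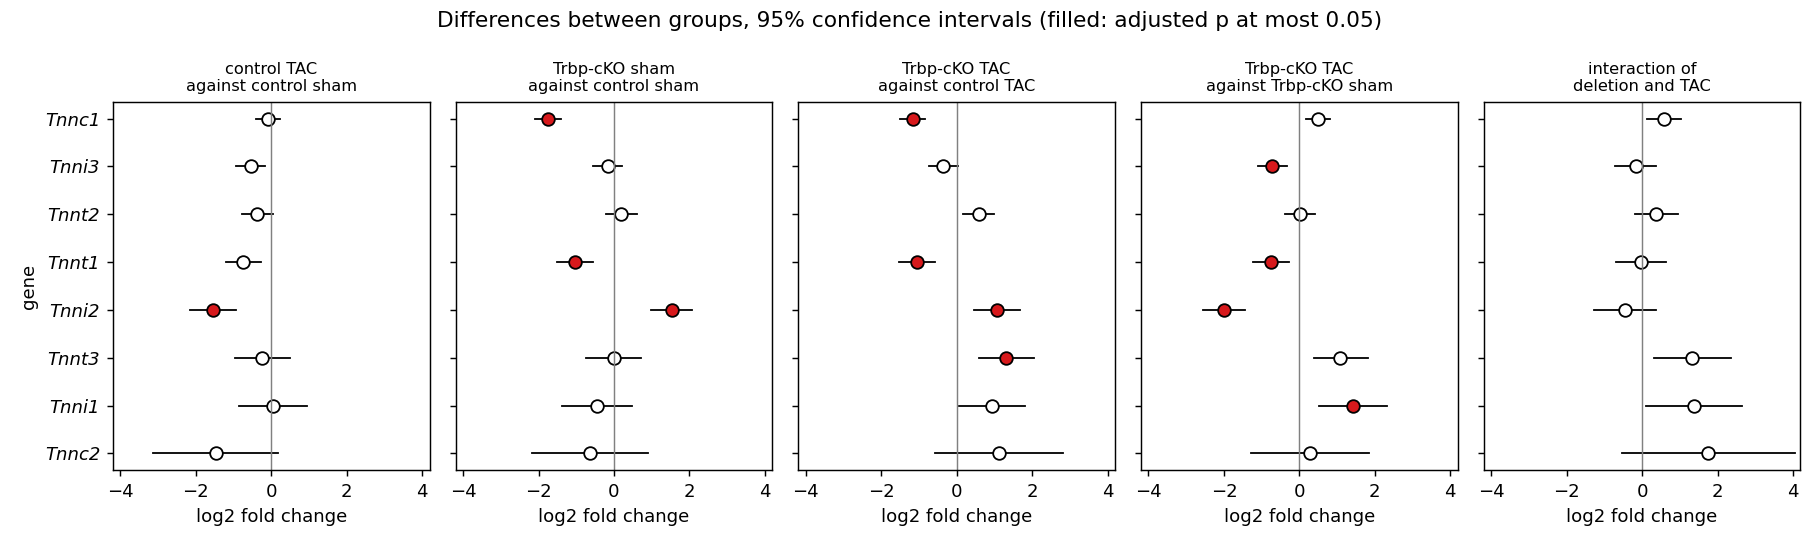
Log2 fold changes of the 8 troponin genes in 4 comparisons of groups and the interaction, with 95% confidence intervals from the edgeR fit of all 16 hearts. Filled points have an adjusted p of at most 0.05: Tnnc1 and Tnnt1 lie to the left in both comparisons with the deletion, Tnni2 is filled in all 4 comparisons of groups, and no point is filled in the interaction.

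A score of 13 clock genes, chosen after the data were seen, also differed between the sham groups. It was 0.51 to 1.32 in control and -1.12 to -0.90 in Trbp-cKO hearts, without overlap. The score and the deletion can therefore hardly be told apart in the sham groups. With this score as a covariate, Tnnc1 had a difference of -1.92 between the sham groups and no longer passed (adjusted p = 0.108). Tnnt1 stood at -1 (adjusted p = 0.673) and Tnni2 at 1.41 (adjusted p = 0.607), and 0 of all genes passed, Tarbp2 among them at 0.108. Between the TAC groups, where the score was -0.32 to 0.09 in control and -0.44 to 1.3 in Trbp-cKO hearts, Tnnc1 passed with it at -1.13 (adjusted p = 0.00196) and Tnnt1 at -1.06 (adjusted p = 0.0277), while Tnni2 at 1.10 (adjusted p = 0.0569) and Tnnt3 at 1.26 (adjusted p = 0.0645) no longer did. With TAC in Trbp-cKO hearts only Tnni2 of the 4 still passed with the score, at -1.92 (adjusted p = 0.0232), and Tnni3 stood at -0.49 (adjusted p = 0.463). In control hearts Tnni2 had -1.61 with TAC (adjusted p = 0.0543). The part of the clock score in these differences was not tested beyond this.

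Ratios of counts within a heart do not depend on the scaling of libraries. Per 100 counts of Tnnt2, Tnnc1 had 29.7, 30.0, 29.6 and 30.2 counts in control sham hearts and 38.0, 39.9, 35.2 and 34.5 in control TAC hearts. Among Trbp-cKO hearts the sham group had 6.85, 7.31, 8.31 and 8.65 and the TAC group 13.4, 11.9, 12.1 and 7.47. The control sham hearts agreed closely, both Trbp-cKO groups were far below both control groups, and Trbp-cKO TAC heart 4 was among the Trbp-cKO sham hearts. Control TAC hearts 1 and 2, low in Tnnc1 by CPM, had the highest ratios of all. Tnni3 had 48.6 ± 1.11 counts per 100 of Tnnt2 in control sham and 43.3 ± 1.96 in control TAC hearts (SD, n = 4), while Trbp-cKO hearts had 37.4 ± 2.54 after sham surgery and 23.4 ± 6.61 after TAC. Its lowest value was 14, in Trbp-cKO TAC heart 4. Tnnc1 per 100 counts of Tnni3 was 61.6 ± 1.51, 85.2 ± 3.27, 20.9 ± 2.85 and 48.5 ± 3.74 in the same order. Thus the 3 transcripts of the cardiac complex stood in different proportions in each group.

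**Figure D4:**
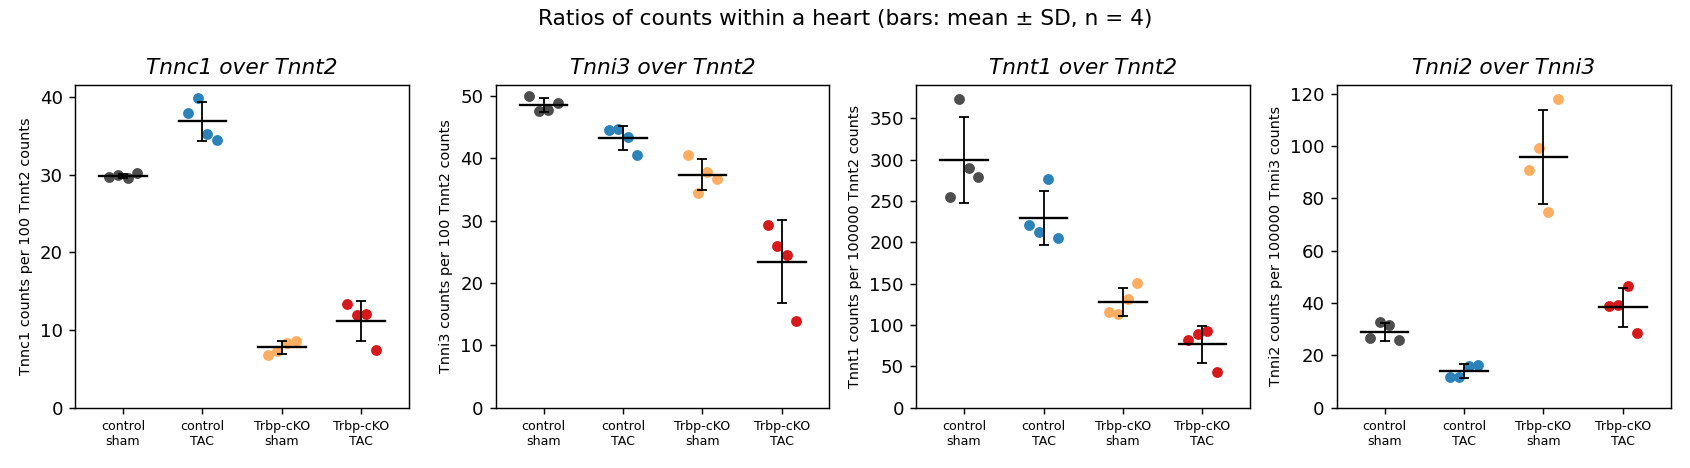
Ratios of counts within each of the 16 hearts, with the group mean and SD (n = 4), for Tnnc1 and Tnni3 per 100 counts of Tnnt2, for Tnnt1 per 100000 counts of Tnnt2 and for Tnni2 per 100000 counts of Tnni3. Tnnc1 per 100 counts of Tnnt2 lies between 29.6 and 39.9 in control and between 6.85 and 13.4 in Trbp-cKO hearts.

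The skeletal forms stayed a small part of each subunit. On levels per kilobase of exon, the forms other than Tnnc1, Tnni3 and Tnnt2 made up at most 0.0476% of troponin C, 0.168% of troponin I and 1.32% of troponin T in any heart. For troponin I this share was 0.0403% to 0.0505% in control sham and 0.0242% to 0.0321% in control TAC hearts, against 0.110% to 0.168% and 0.0698% to 0.0855% in the Trbp-cKO groups. Tnni2 was above Tnni1 in all 16 hearts on this scale, but per kilobase of the principal transcript Tnni1 was the higher in 3 TAC hearts (control TAC hearts 1 and 2 and Trbp-cKO TAC heart 4), and with no length in 4. For troponin T it was 0.978% to 1.32% in control sham and 0.764% to 1.01% in control TAC hearts, against 0.461% to 0.584% and 0.286% to 0.453% in the Trbp-cKO groups, and it was mostly Tnnt1. Per kilobase of the principal transcript the troponin T shares were lower, at 0.319% to 0.441% and 0.251% to 0.333% in the control groups. The Trbp-cKO groups then had 0.148% to 0.19% and 0.0835% to 0.14%. Markers of skeletal muscle were checked beside these values. Myh1, Myh2, Myh4 and Actn3, which define fast skeletal fibres, reached at most 0.205, 0.236, 0.156 and 0.114 CPM in any heart. Myh1 had a mean of 0.131 CPM in Trbp-cKO sham hearts, where Tnni2 was highest, and 0.0336 to 0.0401 in the other groups. Myh2 went another way, with its highest mean of 0.154 CPM in control TAC hearts, where Tnni2 was lowest, and 0.0321 to 0.085 elsewhere. Actn3 had its lowest mean, 0.0143 CPM, in Trbp-cKO sham hearts, and 0.0285 to 0.0705 in the other groups. Myh4 had 0 counts in all 8 control hearts, and means of 0.0754 and 0.0955 CPM in Trbp-cKO sham and Trbp-cKO TAC hearts on counts of 0 to 10. Of 16 skeletal muscle markers 11 were tested. Mybpc1 passed with the deletion after TAC (1 of 11, against 5.53% of all genes) and none in sham hearts. Atp2a1, the calcium pump of fast fibres, fell with TAC by 1.53 in control (edgeR adjusted p = 0.0394, passing in 6 of the 16 fits with a heart left out, and 0.377 without control TAC hearts 1 and 2) and by 1.60 in Trbp-cKO hearts (edgeR adjusted p = 0.0219, passing in 13 of 16). The sum of the 16 markers was 111 to 141 CPM in control sham and 62.8 to 208 in control TAC hearts, and 109 to 261 and 131 to 374 in the corresponding Trbp-cKO groups. Most of that sum came from Casq1, Mybpc2 and Myl1. Of 5 atrial markers 3 were tested. Myl7 had 0.479, 0.311, 0.293 and 0.476 CPM in Trbp-cKO TAC hearts and at most 0.182 in any other heart, with a difference of 2.25 with the deletion after TAC (edgeR adjusted p = 0.125). Myl4 and Nppa passed the same comparison (2 of 3, against 5.53% of all genes). Sln reached at most 0.175 CPM. The sum of the atrial markers, 542 to 1020 CPM in control sham and 1620 to 3860 in control TAC hearts, and 1010 to 1520 and 10300 to 15700 in the Trbp-cKO groups, was nearly all Nppa, which hypertrophic ventricles also make. The summed smooth muscle markers (5 genes) were 393 to 536 CPM in control sham and 270 to 318 in control TAC hearts, and 634 to 836 and 519 to 958 in the corresponding Trbp-cKO groups. Most of that sum came from Acta2, with means of 220, 91.2, 499 and 466 CPM in this order, and from Smtn. Myh11, Tagln and Cnn1 had higher means in control TAC than in control sham hearts. For 6 fibroblast markers the sums were 681 to 772 and 967 to 1810 CPM in the control groups, and 891 to 1130 and 1750 to 3300 in the Trbp-cKO groups. The part of skeletal muscle and of these cell types in the troponin values was not tested.

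The genes most like each member were found by the Pearson correlation of log2 CPM over the 16 hearts, as a description of hearts that share their groups and libraries. For Tnnc1 they were Tarbp2 (r = 0.94), Rhd (0.92) and Bex1 (0.89). Within the 8 control hearts Tnnc1 and Tarbp2 had r = 0.89, which rested on control TAC hearts 1 and 2 and was -0.75 in the 6 others, and within the 8 Trbp-cKO hearts r = -0.29. Tnni3 was most like Etfb (0.99), Ddt (0.98) and Mcee (0.98), and Etfb, a subunit of the electron transfer flavoprotein, had 421 ± 25.6 CPM in control sham and 271 ± 55.9 in control TAC hearts, against 380 ± 44.3 and 194 ± 36 in the Trbp-cKO groups (SD, n = 4). For Tnnt1 the nearest were Hopx (0.96), Epha4 (0.94) and Cryba4 (0.94). Hopx, a homeodomain protein without DNA binding of its own, had 235 ± 6.51 CPM in control sham and 87.3 ± 71.1 in control TAC hearts, and 55.6 ± 12.1 and 16.3 ± 4.85 in the corresponding Trbp-cKO groups (SD, n = 4). Tnnt2 was most like Get4 (0.91), Iscu (0.90) and Snrpn (0.89), Tnni2 like Lgr6, BC037032 and Usb1 (each 0.90), Tnnt3 like Mbd2 (0.87), Ptk2b and Set (both 0.86), and Tnni1 like Magi1 (0.87), Ctif (0.85) and Ptar1 (0.84). Tnnc2, with its low counts, had no gene above 0.72. Among the members, after the group means were taken out, Tnnc1 went with Tnnt1 (r = 0.87) and Tnni3 (0.85), while Tnnc1 and Tnnt2 had 0.56. Control TAC hearts 1 and 2 held the lowest values of their group in each of these genes. Trbp-cKO TAC heart 4 was lowest in its group for Tnnc1, Tnnt1 and Tnni3 and highest for Tnnt2. The correlations without these hearts were not computed.

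**Figure D5:**
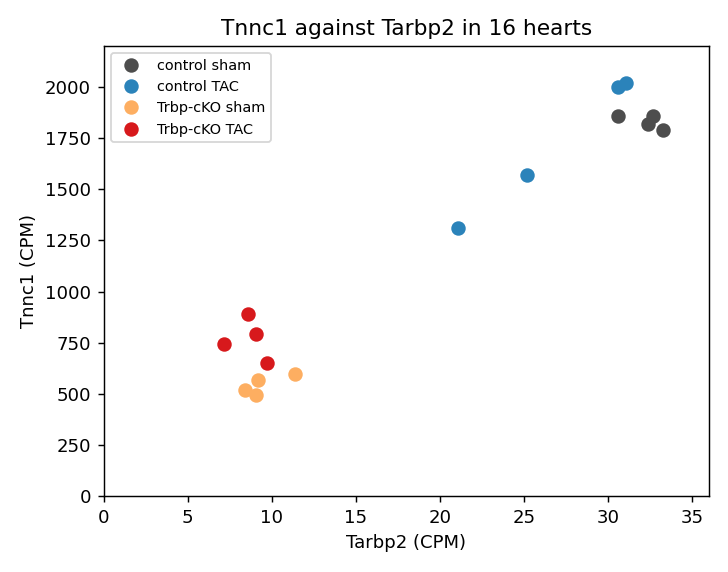
Tnnc1 against Tarbp2, both in CPM, in the 16 hearts, with a colour for each group. The hearts form a control and a Trbp-cKO cluster, and control TAC hearts 1 and 2, at 25.2 and 21.1 CPM of Tarbp2, lie at the lower end of the controls.

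The partners of troponin on the thin filament were followed as a list of 18 genes, all tested. With the deletion 1 was higher in sham hearts and 1 in TAC hearts, in both cases Tpm2, the β-tropomyosin, and none was lower, where 1.68% and 5.53% of all genes passed in these comparisons. Tpm2 had 18.5, 15.9, 19.8 and 17.2 CPM in control sham and 39.4, 36.7, 34.8 and 28.5 in Trbp-cKO sham hearts, and 30.7, 35.4, 17.2 and 24.5 in control TAC and 67.4, 92.2, 56.1 and 67.9 in Trbp-cKO TAC hearts. Its log2 fold change with the deletion was 0.96 (edgeR adjusted p = 0.0231, passing in 9 of the 16 fits with a heart left out) in sham and 1.40 (edgeR adjusted p = 0.00082) in TAC hearts. Tpm1, the main cardiac tropomyosin, and Actc1, cardiac actin, passed in no comparison. With TAC in Trbp-cKO hearts 3 partners rose (Xirp2 by 2.45, Xirp1 by 1.93 and Tpm2 by 1.02) and Tmod4, a tropomodulin, fell by 1.04 (passing in 12 of the 16 fits with a heart left out), which made 4 of 18 against 9.94% of all genes. In control hearts Xirp2 rose with TAC by 1.48 (edgeR adjusted p = 0.00572), and no other partner passed, against 6.29% of all genes.

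On the thick filament, 19 of 23 listed genes were tested. With the deletion 2 passed in sham and 5 in TAC hearts, where 1.68% and 5.53% of all genes did. With TAC 3 passed in Trbp-cKO hearts, where 9.94% of all genes did. The 2 that fell with the deletion in sham hearts were Myl3, the ventricular essential light chain, and Myh7b, a slow myosin heavy chain whose gene hosts a microRNA. Myl3 had 3850, 3960, 3720 and 3730 CPM in control sham and 1450, 1270, 1300 and 1470 in Trbp-cKO sham hearts. That was a difference of -1.47 on the log2 scale (edgeR adjusted p = 0.03), which passed in 8 of the 16 fits with a heart left out. Myh7b had 280, 190, 200 and 218 CPM in control sham and 25.9, 43.5, 53.9 and 45.9 in Trbp-cKO sham hearts, which differed by -2.39 (edgeR adjusted p = 0.000869). After TAC both fell with the deletion, by 1.95 and 3.50, and 3 genes rose, Myl4 by 1.90, Myom3 by 1.45 and Mybpc1 by 2.57, the last at a mean of 0.8 CPM in Trbp-cKO TAC hearts. With TAC in Trbp-cKO hearts Myl4 rose by 1.32 and Myom3 by 1.02. Myh7b fell by 0.98 there, passing in 11 of the 16 fits with a heart left out. In control hearts 0 of the 19 passed with TAC in edgeR, where 6.29% of all genes did. Myl4, the atrial and fetal essential light chain, was the only gene of the thin and thick filament lists to pass the interaction in the fit of all 16 hearts, at 1.64 (edgeR adjusted p = 0.0201), which 1.05% of all genes passed. It passed in 14 of the 16 fits with a heart left out and in 8 of 10 other alternatives, where its lowest value was 0.72. Xirp1, of the thin filament list, passed the interaction in 2 of the 16 fits with a heart left out and in 4 of 10 other alternatives.

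Of 19 transcription factors known to act on troponin genes, 17 were tested, and 1 passed with the deletion after TAC and 1 with TAC in control hearts, where 5.53% and 6.29% of all genes did. Sox6, a repressor of slow fibre genes in skeletal muscle, was higher in Trbp-cKO TAC than in control TAC hearts by 1.41 (edgeR adjusted p = 0.0226, passing in 11 of the 16 fits with a heart left out). It passed in 9 of 12 other alternatives, where its lowest value was 0.92. In sham hearts the difference of Sox6 was 0.96 (edgeR adjusted p = 0.168). Control sham hearts had 12.8 ± 0.46 CPM (12.4 to 13.4) and Trbp-cKO sham hearts 25 ± 6.19 (16.5 to 31, SD, n = 4). This sham difference passed in 0 of the 16 fits with a heart left out. It passed in 3 of 12 other alternatives, where its lowest value was 0.38. Mef2a was lower after TAC in control hearts at -0.48 (edgeR adjusted p = 0.0341), and no other factor passed in any comparison. Of 10 splicing factors that act on troponin T transcripts, Rbfox1 fell with TAC by 1 in control hearts (edgeR adjusted p = 0.0168, and -0.65 at 0.203 without control TAC hearts 1 and 2, either of which ended the call when left out) and by 1.07 in Trbp-cKO hearts (edgeR adjusted p = 0.00543), and the other 9 passed nowhere. This made 1 of 10 in each of these comparisons, where 6.29% and 9.94% of all genes passed, so the list lay near the share of all genes. The counts are per gene, so the splice forms of Tnnt2 and Tnnt3 were not measured here.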

How the data were processed

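Polyadenylated RNA of ventricular tissue from 16 hearts was sequenced. Per the labels and the study's methods, the authors used cutadapt 2.3 for trimming, HISAT2 2.1.0 for alignment to GRCm38, estimated transcripts with StringTie 1.3.4 and deposited whole-number gene counts without normalization. The script behind such counts scales coverage by an assumed read length that is not given in the sources used here, so counts may exceed fragments by a common factor, while the confidence intervals come from the spread between hearts in the fit. Whether strand was used is not given either.

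The members and lists were chosen with earlier results of these data known. Counts were analysed with edgeR 4.0.16 in R 4.3.3: default filter on groups (19955 genes, all 8 members), TMM, 1 robust quasi-likelihood fit of all 16 hearts, and Benjamini-Hochberg adjustment over all genes tested. "Passed", "rose" and "fell" mean an adjusted p of at most 0.05; among list genes only those also past a log2 fold change of 0.8 are named, 3 at most per list and comparison by p. Mef2a, Tpm1, Actc1, Tmod4 and the thick filament values of Myl3 and Mybpc1 with the deletion after TAC fall outside this and were added after their values were seen, as were marker levels given as checks. CPM use TMM-adjusted library sizes, and the exact permutation test is two-sided over 70 assignments. Likeness was limited to genes with a symbol and a mean log2 CPM of at least 1, the 3 nearest being named. GENCODE M21 placed 55480 of 55573 genes. The clock genes and the hearts left out by marker level were chosen after seeing the data. Alternatives were other filters, scalings, tests (DESeq2 1.42.0, edgeR's exact test), thresholds, gene lengths, halved counts, a replicate block and each heart left out. The fitting script was tested on simulated data. The labels give separate mice, and replicate numbers did not pair hearts.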

Additional observations from a re-analysis of the deposited data

Results flagged for a closer look

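Tnni1 in control TAC heart 4 stood at 0.0702 CPM, while the other 3 control TAC hearts lay between 0.382 and 0.431. The gap to the nearest heart was 0.865 of the range of the group, above the critical value of 0.829 for 4 hearts. This heart had 4 counts of Tnni1. Of 32 sets of 4 hearts checked (8 genes in 4 groups) this was the only one past the critical value, and about 5% of such sets pass it by chance.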

How the results depend on the processing

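No alternative reversed a troponin gene that had passed. Tnnc1 passed with the deletion in all 16 fits that left out 1 heart under both surgeries, and Tnni2 did so with TAC in both genotypes and with the deletion in sham hearts. The number of troponin genes passing ranged over those fits from 1 to 3 with TAC in control hearts. It was 2 to 3 with the deletion in sham hearts and 2 to 4 with the deletion after TAC. TAC in Trbp-cKO hearts had 1 to 5, and the interaction 0 to 0. In the same order, all genes passing numbered 380 to 2871, 95 to 522, 467 to 1598, 1321 to 2285 and 61 to 493. With the deletion after TAC the 4 became 0 in a fit of only these groups, 2 with a replicate block, 2 without control TAC hearts 1 and 2 and 2 with the clock score, and 5 with DESeq2 or with library size only. With TAC in Trbp-cKO hearts the 4 became 2 with a log2 fold change of at least 0.8 or 1, 2 with no filter, 1 with a replicate block and 1 with the clock score, and 6 with DESeq2, with edgeR's exact test, with library size only, with halved counts or without control TAC hearts 1 and 2. With TAC in control hearts the 1 became 3 with DESeq2, 2 with a filter of 1 CPM in 4 hearts, 0 without control TAC hearts 1 and 2 and 0 with the clock score. With the deletion in sham hearts the 3 became 0 with the clock score. Over the alternatives other than a heart left out, all genes passing numbered 149 to 2426 with TAC in control hearts. The ranges with the deletion were 0 to 1695 in sham hearts and 96 to 2113 after TAC. In Trbp-cKO hearts TAC gave 460 to 3530. The troponin counts are not set against the share of all genes under each alternative. For these changes the cause was not tested. The replicate numbers did not pair hearts: 24 pairs of the same number correlated at -0.54 to 0.40 (median -0.08). The highest summed share of minor isoforms was 0.124% (longest transcript) or 0.127% (no length) against 0.168% for troponin I, and 0.378% (no length) or 0.441% (principal transcript) against 1.32% for troponin T. Library size without TMM moved the median of all genes by 0.1 between the sham groups and 0.14 between the TAC groups. Tnnc2, Tnni1, Tnni2 and Tnnt3 had 0 to 176 counts per heart, and what deeper sequencing would change was not tested.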
